A study of Mus musculus with 8 samples.

Results

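The Dlk1-Dio3 imprinted region is a cluster of genes on mouse chromosome 12, described here through 6 genes: Meg3, Rian, Mirg, Dlk1, Rtl1 and Dio3. Members were the probe sets whose platform annotation gives 1 of these symbols. This found 19 probe sets for 4 of the 6 genes, among 18193 genes with a single symbol in all. Meg3 had 11 probe sets, Rian 4, Mirg 2 and Dlk1 2. Rtl1 and Dio3 were not analysed here, because the annotation used lists no probe set under either symbol. RNA was measured on 8 Affymetrix 3' expression arrays from embryonic stem (ES) cells and induced pluripotent stem (iPS) cells, which are body cells returned to a pluripotent state. The labels give 1 control ES line, called normal, and 3 iPS lines (iPS cell line1, line2 and line3) described as integration-free, meaning that the reprogramming factors left no copy in the genome. Each line had 2 arrays. All lines were C57BL/6 and male, were kept in N2B27 medium with mouse LIF, and were taken at passage 7 to 10. The sources used here do not give the reprogramming method, the starting cell or whether a line is 1 clone. The titles call the arrays biological replicates, but whether each array had its own culture is not stated. Thus the p-values below rest on array-to-array spread alone, possibly technical, except where lines or their means are taken as the samples. In all of them 1 ES line stands for all ES cells.

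Imprinted genes are read mainly from the copy inherited from 1 parent. In the Dlk1-Dio3 region the paternal copy gives the protein-coding genes Dlk1, Rtl1 and Dio3, while the maternal copy gives the long noncoding RNAs Meg3 (also called Gtl2), Rian and Mirg, together with many small nucleolar RNAs and microRNAs. A stretch between Dlk1 and Meg3 that is methylated on the paternal copy controls which genes are read. In mouse iPS cells the region is known because some lines lose the maternal RNAs, a loss that has been linked with poor contribution to chimaeric mice.

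In these arrays the maternal RNAs were present in all 3 iPS lines. Where their signals could be read in every array, the mean signals of Meg3, Rian and Mirg lay above the ES level for 14 of 14 probe sets in lines 1 and 3 and for 11 of 14 in line 2. Over all probe sets tested, dimmer ones included, 49.8%, 47.7% and 56.2% did so in lines 1, 3 and 2. Of all probe sets tested, 0.63%, 0.752% and 11.1% passed the test as higher in lines 1, 3 and 2. Among these 14, the difference passed for 5 probe sets in line 1, 5 in line 3 and 3 in line 2. Some of the others changed sign when 1 array was left out: Rian 1440001_at and Meg3 1452906_at in line 1, Meg3 1452906_at in line 3, and Meg3 1426758_s_at, Meg3 1429257_at and Rian 1427580_a_at in line 2. Dlk1 was near or under the floor in every line. The low-signal floor was 37.1, the 40th percentile of all signals, and stands in for detection calls. Of the 19 probe sets, 14 were above the floor in all 8 arrays: 8 for Meg3, 4 for Rian and 2 for Mirg. A further 3 Meg3 probe sets were above it in 2 to 5 arrays and entered the tests, and both Dlk1 probe sets did not. Differences were taken on log2(signal + 12.4), which understates the change of dim probe sets, and tested with limma over 30965 probe sets with Benjamini-Hochberg adjustment. A probe set is said to have risen or fallen where its adjusted p was under 0.05. Signals of different probe sets cannot be set against each other, and probe sets of 1 gene share their target. In the annotation, 3 Meg3 probe sets share 1 source sequence and 2 further pairs share another each, so the 11 are not independent measures of Meg3. The endings _s_at and _x_at can mark probes shared with other transcripts. Meg3 1439380_x_at, 1436713_s_at and 1426758_s_at and Dlk1 1449939_s_at have these endings, and their probe sequences were not checked. Fewer cells that hold an RNA and less of it per cell cannot be told apart in these bulk samples.

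Meg3 is a long noncoding RNA read from the maternal copy, and 4 of its 11 probe sets rose in the iPS mean. The average over all its probe sets did not pass there (0.29, adjusted p = 0.11) or in line 1 (0.25, adjusted p = 0.393), line 2 (0.13, adjusted p = 0.477) or line 3 (0.48, adjusted p = 0.0528). Of the 4, probe set 1439380_x_at gave signals of 3283 and 3075 in the ES arrays, 4409 and 3968 in line 1, 4019 and 3415 in line 2, and 4371 and 4487 in line 3. All 6 iPS arrays were above both ES arrays, and 1 array of line 2 was the nearest to them. Probe set 1452905_at gave 2145 and 2051 in ES cells, 2974 and 2826 in line 1, 2590 and 2519 in line 2, and 3099 and 3137 in line 3. Here the groups did not overlap at all: ES cells were lowest, then line 2, then line 1, then line 3. Probe set 1452183_a_at read 1245 and 1133 in ES cells, 1679 and 1569 in line 1, 1636 and 1491 in line 2, and 1630 and 1686 in line 3, so that the 3 iPS lines overlapped with each other and none overlapped with ES cells. Probe set 1436713_s_at read 558 and 496 in ES cells, 815 and 817 in line 1, 708 and 774 in line 2, and 865 and 891 in line 3, in the same order as 1452905_at.

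Each of these 4 probe sets rose in the iPS mean, taken over the 3 lines with equal weight and set against ES cells. The log2 difference was 0.36 ± 0.07 (SE) for 1439380_x_at (adjusted p = 0.00927, 1.29-fold). It was 0.44 ± 0.06 for 1452905_at (adjusted p = 0.000643, 1.36-fold) and 0.44 ± 0.07 for 1452183_a_at (adjusted p = 0.00337). The widest difference of the 4 was that of 1436713_s_at, 0.61 ± 0.08 (adjusted p = 0.000999, 1.53-fold). All 4 were above the floor in both ES arrays, so the difference was one of level and not of presence.

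The remaining 4 Meg3 probe sets above the floor in all arrays were positive in the mean and did not pass the test. Probe set 1426758_s_at differed by 0.31 ± 0.16, with ES arrays at 571 and 379 and iPS arrays from 439 to 689. Probe set 1428764_at differed by 0.34 ± 0.17, with 5 of 6 iPS arrays above both ES arrays. The difference was 0.53 ± 0.27 for 1429257_at, whose ES arrays lay far apart at 126 and 56.0, and 0.09 ± 0.18 for 1452906_at. The smallest adjusted p of these 4 was 0.345. Their standard errors, 0.16 to 0.27, were above those of the 4 probe sets that passed, 0.06 to 0.08.

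The sequence before the annotated start of Meg3 is shown because its promoter lies in the imprinted domain and Meg3 has the most probe sets. It has 11 of the 17 tested and 4 of the 5 that rose in the iPS mean. The RefSeq table gives 2 start windows for Meg3, each from 250 bases before to 50 bases after the start. The window of the upstream start is chr12:109540746-109541045 (GRCm38.p6, plus strand, 5′ to 3′).
Meg3 promoter: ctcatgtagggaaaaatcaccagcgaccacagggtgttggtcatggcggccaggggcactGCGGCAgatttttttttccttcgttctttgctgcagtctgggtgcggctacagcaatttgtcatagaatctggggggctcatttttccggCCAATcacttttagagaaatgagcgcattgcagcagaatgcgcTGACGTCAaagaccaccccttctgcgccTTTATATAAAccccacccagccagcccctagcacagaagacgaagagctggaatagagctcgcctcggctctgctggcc
Capitals mark matches to 4 motifs searched on both strands. The TATA box TATAAA, which helps place the start of transcription, matched on each strand in overlapping letters, 25 and 29 bases before the start. A CCAAT box (CCAAT) began 100 bases before it and a cAMP response element (TGACGTCA) 57 bases before it. The motif TGCCGC, which the imprint-keeping zinc finger protein ZFP57 binds when it is methylated, matched on the minus strand 190 bases before the start. Of 32851 RefSeq windows of the same length, 13.6% held TATAAA, 37.4% CCAAT, 1.79% TGACGTCA and 11.6% TGCCGC. The Meg3 window held 13 CpG sites, against a median of 7 over all windows. The second Meg3 window and those of Rian and Dlk1 held 0 matches, and the Mirg window held 1, a CCAAT box. The Dlk1 window begins at base 109452573, inside the gene, which is annotated from base 109452485. The letters before that gene start were not searched. The Dio3 window held 3 matches, a TATA box and 2 CCAAT boxes, and 25 CpG sites, though no signal of Dio3 was analysed here. A match describes these letters only, and neither binding nor methylation was measured here.

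Rian, the maternal noncoding RNA that carries many small nucleolar RNAs, lies downstream of Meg3. Its probe set 1452899_at gave 1934 and 1785 in the ES arrays, 2496 and 2617 in line 1, 2095 and 2204 in line 2, and 2909 and 2537 in line 3. ES cells were lowest and line 2 next, with no overlap, while lines 1 and 3 overlapped. It rose in the mean of the iPS lines by 0.40 ± 0.07 (adjusted p = 0.00467, 1.32-fold). Probe set 1427580_a_at gave 601 and 645 in ES cells, 814 and 884 in line 1, 662 and 600.2 in line 2, and 778 and 786 in line 3. Line 2 overlapped ES cells here, and the mean difference of 0.26 ± 0.08 did not pass the test (adjusted p = 0.114).

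The other two Rian probe sets did not pass in the mean either. Probe set 1428055_at gave 161 and 202 in ES cells, 253 and 224 in line 1, 158 and 148 in line 2, and 256 and 239 in line 3. Both arrays of line 2 were below both ES arrays, and all arrays of lines 1 and 3 were above them. Probe set 1440001_at ranged from 179 to 305, and its highest value was 1 array of line 3 whose partner read 208.

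Mirg is the maternal noncoding RNA that hosts part of the microRNAs of the region. Its probe set 1457030_at gave 300.1 and 330.4 in ES cells, 428 and 414 in line 1, 349 and 242 in line 2, and 487 and 467 in line 3. Lines 1 and 3 were above ES cells without overlap and line 2 straddled them, with 1 array above both ES arrays and 1 below. Its mean difference of 0.29 ± 0.13 did not pass (adjusted p = 0.269). Probe set 1440097_at gave 140.5 and 86.1 in ES cells, 175 and 162 in line 1, 141 and 154 in line 2, and 195 and 187 in line 3. All 6 iPS arrays were above both ES arrays, 1 of them narrowly, and the difference of 0.56 ± 0.18 did not pass (adjusted p = 0.119).

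**Figure D1:**
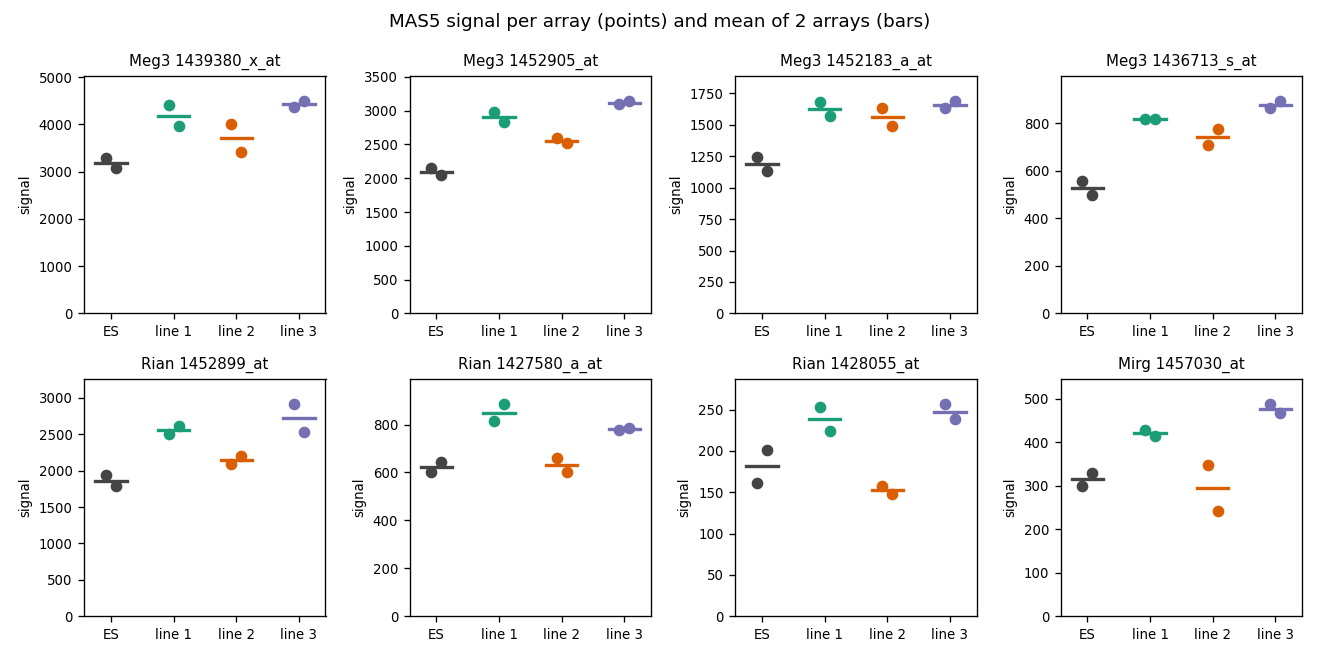
MAS5 signal (linear, vertical axis from 0) of the 8 probe sets of Meg3, Rian and Mirg that passed the test in at least 1 comparison, in ES cells and iPS lines 1 to 3. Points are arrays and bars are means of 2 arrays. Meg3 1452905_at runs from 2051 in ES cells to 3137 in line 3 with no overlap between groups, whereas line 2 lies below ES cells in Rian 1428055_at and straddles them in Mirg 1457030_at.

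MicroRNAs were not measured on these arrays, and the host transcripts above are not a reading of them. RefSeq lists 58 microRNA hairpins between Dlk1 and Dio3, of which 54 are on the plus strand. Of these, 1 lies in Meg3, 3 in Rian, 10 in Mirg and 28 between Rian and Mirg. The mature forms below are shown because they are the pairs among 114 mature forms that share a seed, bases 2 to 8, while at least 1 of each pair lies in Meg3, Rian or Mirg. They are given 5′ to 3′ from RefSeq (GRCm38.p6, chromosome 12, plus strand) with the seed in capitals.
mmu-miR-370-5p: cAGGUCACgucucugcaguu
mmu-miR-1193-3p: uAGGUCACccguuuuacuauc
mmu-miR-453: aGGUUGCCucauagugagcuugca
mmu-miR-496a-5p: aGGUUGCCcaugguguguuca
mmu-miR-494-5p: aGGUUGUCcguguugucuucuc
mmu-miR-410-5p: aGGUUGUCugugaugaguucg
Of these, miR-370-5p lies in Rian, miR-453, miR-496a-5p and miR-410-5p lie in Mirg, and the other two lie between those genes.

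Dlk1, a paternally read membrane protein related to the Notch ligands, was near the bottom of the scale in all 4 lines. Probe set 1449939_s_at gave 13.2 and 25.5 in ES cells, 26.9 and 41.9 in line 1, 17.4 and 5.8 in line 2, and 22.0 and 30.5 in line 3, so 1 of 8 arrays was above the floor. Probe set 1442724_at was under the floor in all 8 arrays, with 22.2 and 12.5 in ES cells and 2.5 to 7.2 in the iPS lines. Both were left out of the tests for low signal. No difference is given, because both sides of each comparison were at or near the floor. When the floor was dropped and 45037 probe sets were tested by limma, neither passed in the iPS mean (adjusted p = 0.295 for 1442724_at and 0.914 for 1449939_s_at). A loss or gain of Dlk1 was therefore not measurable at this signal.

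Among the dim Meg3 probe sets, 1436057_at gave 31.0 and 72.3 in ES cells and 18.0 to 89.6 in iPS arrays, with 4 arrays above the floor. Probe set 1429256_at was above the floor in 5 arrays, and its highest values were 61.9 and 56.6 in line 3. Probe set 1428765_at was above it only in the 2 arrays of line 3, at 37.8 and 54.2, and so entered the tests through that line alone. None of the 3 passed in any comparison.

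**Figure D2:**
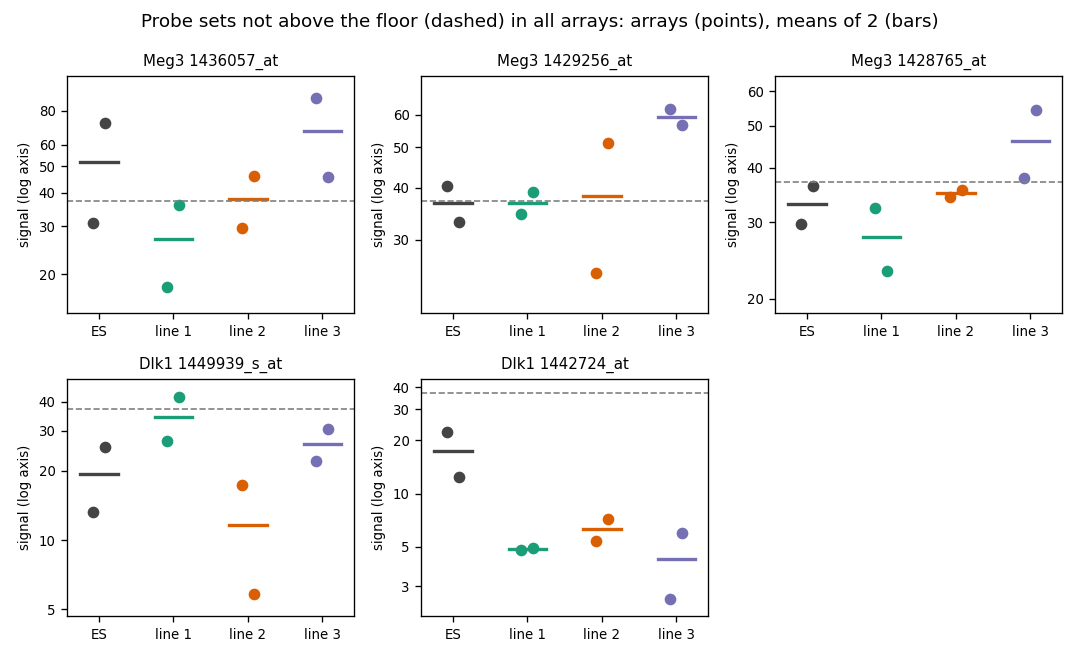
MAS5 signal on a log axis for the 5 probe sets of Meg3 and Dlk1 that were not above the floor in all 8 arrays. Points are arrays, bars are means of 2 arrays and the dashed line is the floor of 37.1. Both Dlk1 panels lie under the floor except for 1 array of line 1 at 41.9.

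The question of what the iPS lines have in common was put to their equally weighted mean. Of the 17 member probe sets tested, 5 rose and 0 fell: 4 of 11 for Meg3, 1 of 4 for Rian and 0 of 2 for Mirg. Over all 30965 probe sets tested, 2.35% rose and 1.83% fell. Over the 14 members above the floor in all arrays the median log2 difference was 0.35. It was 0.01 for all probe sets tested, dimmer ones included. For 6 of the 14 probe sets above the floor everywhere, all 6 iPS arrays exceeded both ES arrays, which held for 5.8% of all tested and 6.67% of those above the floor in all arrays. These were the 5 that rose and Mirg 1440097_at. The member counts that follow stand beside fewer calls over all probe sets tested when 1 ES array was left out. Without replicate 2 of ES cells 2 probe sets rose (Meg3 1452905_at and 1436713_s_at), without replicate 1 Meg3 1439380_x_at was lost (adjusted p = 0.0728), and without an intensity trend in the variance model 0 did, where 87 of all probe sets passed in place of 1295. The 5 calls were not kept when the test took the lines as the samples, with each of the 3 iPS lines a single value. That leaves 1 value for ES cells, so the loss says nothing particular about the members.

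The calls also came from each line on its own. The 3 comparisons share the same 2 ES arrays, so their values stand side by side and are not independent. In line 1, 5 members rose and 0 fell, where 0.63% and 0.543% of all probe sets did. In line 3, 5 rose and 0 fell, where 0.752% and 1.3% did. In both lines these were the 4 Meg3 probe sets that rose in the mean and Rian 1452899_at. In line 2, 3 rose and 0 fell, where 11.1% and 7.82% of all probe sets did. The count in line 2 is thus read against a far higher background than those of lines 1 and 3.

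The 4 Meg3 probe sets rose in line 3 by 0.48 to 0.73 on the log2 scale, least for 1452183_a_at and most for 1436713_s_at, with adjusted p from 0.00102 to 0.0134. In line 1 they rose by 0.40 to 0.62 (adjusted p from 0.00472 to 0.0443). In line 2 the 3 that rose were 1452905_at by 0.28 ± 0.07 (adjusted p = 0.0117), 1452183_a_at by 0.39 ± 0.09 (adjusted p = 0.00656) and 1436713_s_at by 0.48 ± 0.10 (adjusted p = 0.00486). Meg3 1439380_x_at differed there by 0.22 ± 0.08 and missed the threshold (adjusted p = 0.0933).

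Rian 1452899_at rose by 0.46 ± 0.08 in line 1 (adjusted p = 0.0183) and by 0.54 ± 0.08 in line 3 (adjusted p = 0.00463). In line 2 it differed by 0.21 ± 0.08 (adjusted p = 0.109), with a 95% interval from 0.03 to 0.39. Mirg 1457030_at differed from ES cells by 0.58 ± 0.16 in line 3 (adjusted p = 0.0882), 0.40 ± 0.16 in line 1 (adjusted p = 0.351) and -0.11 ± 0.16 in line 2 (adjusted p = 0.706). None of the 6 Rian and Mirg probe sets passed in line 2, and Rian 1428055_at was at -0.22 ± 0.17 there.

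These counts rest on few arrays. In each line, leaving out an array of either group compared also lowered the number of calls over all probe sets tested. In line 1, 0 members passed without ES replicate 2 or without line 1 replicate 1, 1 without line 1 replicate 2 and 2 without ES replicate 1. In line 2, 0 passed without ES replicate 2 and 1 without line 2 replicate 1. In line 3, 2 passed without ES replicate 2 and 3 without ES replicate 1 or either array of line 3. Without the intensity trend 0, 1 and 0 passed in lines 1, 2 and 3. Of all 30965 probe sets 7, 2677 and 0 passed in that setting, in place of 363, 5846 and 636. With arrays centred on their median, Meg3 1452905_at in line 2 fell short (0.19, adjusted p = 0.148).

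**Figure D3:**
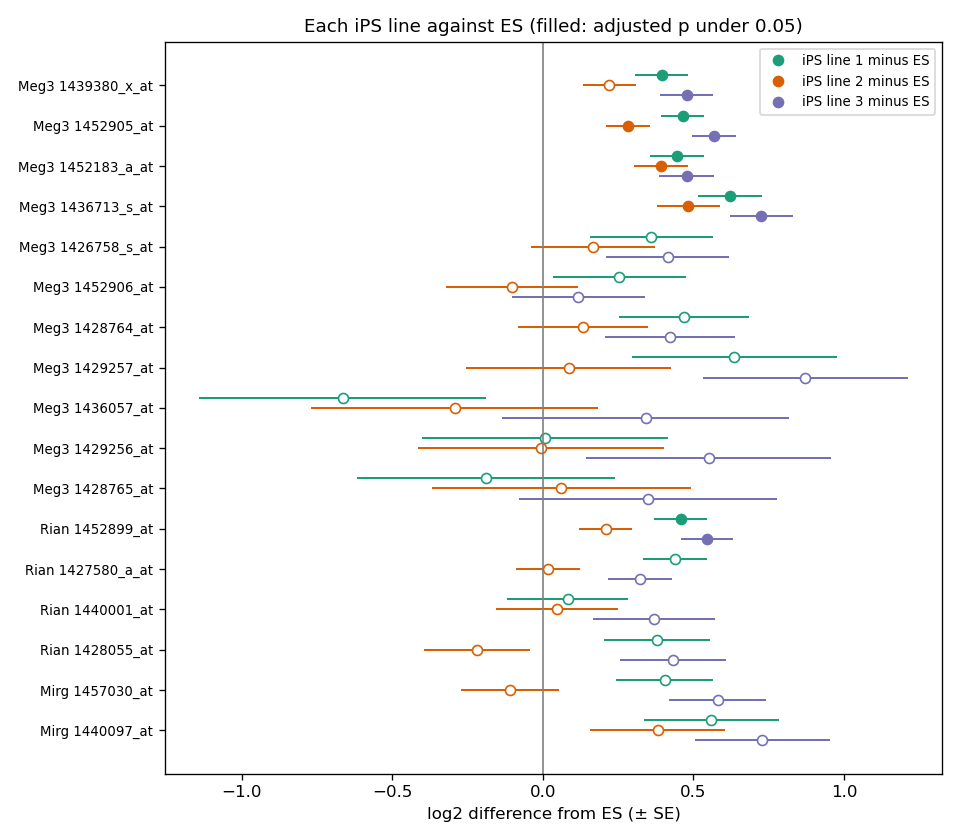
Log2 difference from ES cells (horizontal axis) of the 17 tested member probe sets in iPS lines 1, 2 and 3. Points are limma estimates, bars are standard errors, and filled points had an adjusted p under 0.05. The filled points are 5 in line 1, 3 in line 2 and 5 in line 3, all to the right of 0, and the bars widen for the 3 dim Meg3 probe sets.

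Line 2 stood below the other iPS lines. Over the 14 probe sets above the floor in all arrays, line 2 had the lowest mean of the iPS lines in 14, which held for 34.5% of all probe sets above the floor everywhere. In 9 both of its arrays were below all 4 arrays of lines 1 and 3, which held for 19.5%. ES cells had the lowest mean of all groups in 11 and line 2 in 3. Line 3 had the highest mean in 11 and line 1 in 3.

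Against line 3, 6 of 17 members were lower in line 2 and 0 were higher, where 8.95% of all probe sets were lower and 13.5% higher. They were Mirg 1457030_at (-0.69 ± 0.16, adjusted p = 0.00665), Rian 1428055_at (-0.65 ± 0.17, adjusted p = 0.0154), Rian 1452899_at (-0.34 ± 0.08, adjusted p = 0.0109), Rian 1427580_a_at (-0.30 ± 0.10, adjusted p = 0.0486), Meg3 1452905_at (-0.29 ± 0.07, adjusted p = 0.00903) and Meg3 1439380_x_at (-0.26 ± 0.08, adjusted p = 0.0455). The 14 members above the floor in all arrays had a median of -0.30 and none was positive. The median of all tested probe sets, dimmer ones included, was 0.08. The count was 1 without line 2 replicate 2, 2 without either array of line 3, and 1 without the intensity trend. Meg3 1439380_x_at did not pass with quantile normalization (-0.18, adjusted p = 0.187). Fewer of all probe sets tested passed when an array of line 2 or line 3 was left out.

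Against line 1, 3 of 17 members were lower in line 2 and 0 were higher, where 6.74% of all probe sets were lower and 9.07% higher. Rian 1428055_at differed by -0.60 ± 0.17 (adjusted p = 0.0325), Mirg 1457030_at by -0.51 ± 0.16 (adjusted p = 0.0436) and Rian 1427580_a_at by -0.42 ± 0.10 (adjusted p = 0.0135). No Meg3 probe set passed here, and the 4 that rose in the iPS mean differed by -0.18 to -0.05. Over all probe sets tested, fewer passed when an array of line 1 or line 2 was left out. The median of the 14 members above the floor in all arrays was -0.22, beside 0.07 for all probe sets, dimmer ones included. The count was 0 without line 1 replicate 2, without line 2 replicate 2 or without the intensity trend, 1 without line 1 replicate 1 or without the floor, and 6 when each array was centred on its median.

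Lines 1 and 3 were not separated by this test. Of 17 members 0 were higher and 0 lower in line 1, and 0 had an unadjusted p under 0.05, where 0.484% and 0.174% of all probe sets were higher and lower. The median of the 14 above the floor in all arrays was -0.08. The 95% interval of the difference ran from -0.25 to 0.04 for Meg3 1452905_at, from -0.27 to 0.09 for Rian 1452899_at and from -0.52 to 0.17 for Mirg 1457030_at, so a difference of these sizes could be present. In the order of Meg3 1452905_at levels, ES cells differed from line 2 and line 2 from line 3, while line 2 and line 1 (adjusted p = 0.099) and line 1 and line 3 (adjusted p = 0.646), which are neighbours in that order, did not pass.

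**Figure D4:**
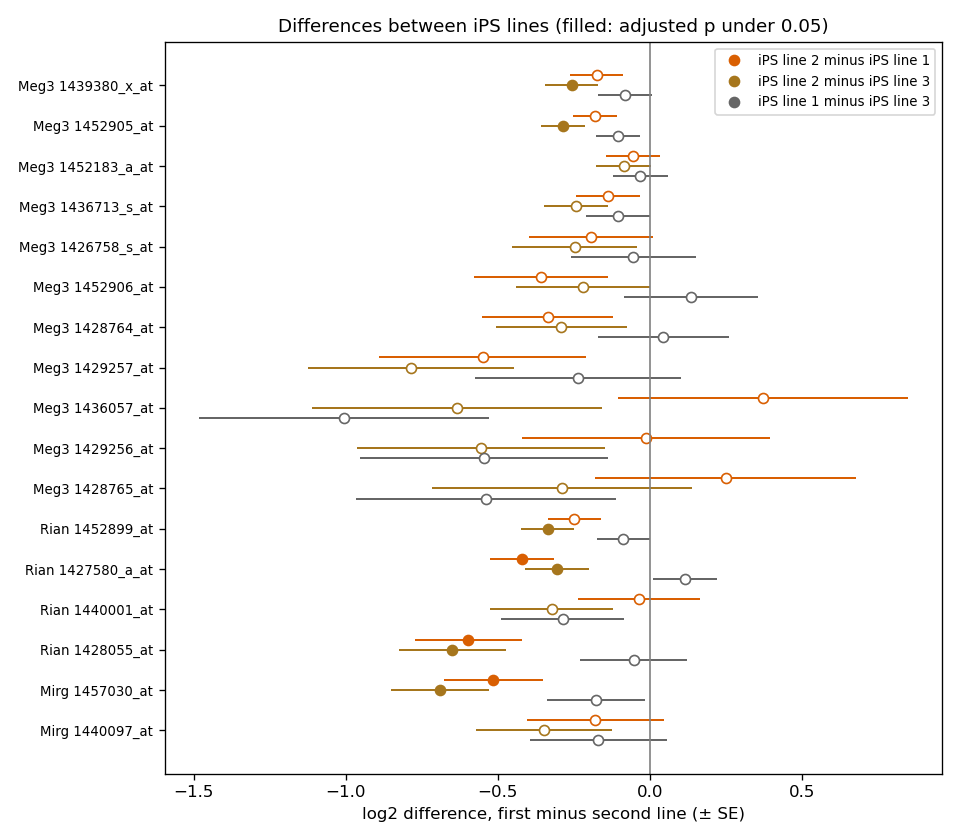
Log2 difference between pairs of iPS lines (horizontal axis, line named first minus line named second) of the 17 tested member probe sets. Points are limma estimates, bars are standard errors, and filled points had an adjusted p under 0.05. Line 2 against line 3 has 6 filled points and line 2 against line 1 has 3, all left of 0. Meg3 1428765_at was above the floor in line 3 alone, so its place left of 0 against that line follows from the floor.

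Line 2 also stood apart in quantities other than the members' signals, and line and quality cannot be told apart here. Its beta-actin 3'/5' signal ratio, a measure of RNA quality, was 1.74 and 1.79 against 1.49 to 1.62 in the other 6 arrays, and its median signals, 62.3 and 64.3, were the highest of a range from 54.1. The Gapdh 3'/5' ratio did not set line 2 apart, with 0.915 and 0.946 against 0.856 to 0.935 in the other arrays. Its trimmed mean signal did not differ, at 499.8 in all arrays. Without line 2, 7 members rose in the iPS mean, the 5 above with Rian 1427580_a_at (0.38, adjusted p = 0.0472) and Mirg 1457030_at (0.49, adjusted p = 0.0372). Of all 30965 probe sets 232 rose and 289 fell without line 2, in place of 727 and 568. The part of these quantities in the lower Meg3, Rian and Mirg signals of line 2 was not tested.

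Markers of pluripotent cells were above the floor in all arrays for 10 of 10 genes, with summed signals from 103901 to 118256. Dppa5a was the brightest of them, at 32784 to 41673. By limma against ES cells, 3 of the 10 fell in line 2 and 0 rose, where 7.82% and 11.1% of all probe sets did. They were Utf1 (-0.86, adjusted p = 0.00118), Lin28a (-0.32, adjusted p = 0.0169) and Pou5f1 (-0.23, adjusted p = 0.0221). Lin28a rose in line 3 (0.38, adjusted p = 0.0351). Neural markers, 6 of 9 of which were above the floor in all arrays, summed to 1107 to 1312 in ES cells, 1883 to 1912 in line 1, 1414 to 1472 in line 2 and 1949 to 2131 in line 3. This sum is carried by Ina and Tubb3, while other genes of the list run otherwise. Map2 was highest in line 2 (224 and 232), and Sox1 was highest in ES cells (94.4 and 70.5) and lowest in line 3 (13.6 and 39.0). Neurog2 was at or under the floor in all 8 arrays. In the iPS mean 2 of 7 tested neural markers rose, where 2.35% of all probe sets did. Trophoblast markers, 7 of 9 above the floor in all arrays, summed to 4022 to 4031 in ES cells, 8132 to 8581 in line 1, 7670 to 8121 in line 2 and 4857 to 5335 in line 3. Of 8 tested, 2, 4 and 2 rose and 0 fell in lines 1, 2 and 3 against ES cells. Of all probe sets 0.63%, 11.1% and 0.752% rose there. The median log2 differences of the 8 were 0.21, 0.78 and 0.25. Fibroblast markers summed to 281 to 322, 338 to 350.4, 506 to 586 and 325 to 338 in ES cells and lines 1, 2 and 3, with 1 of 12 measured above the floor in all arrays and Col1a1, Col6a1, Postn, Twist2 and Dcn under it in all. In line 2, 1 of 6 tested fibroblast markers rose against ES cells, where 11.1% of all probe sets did, and 5 did not pass. It was Pdgfrb, at 247 and 177 there and 24.5 to 58.2 in the other arrays. Primitive endoderm markers, 5 of 10 above the floor in all arrays, summed to 585 to 746 over all arrays. Muscle markers, 3 of 6 above it in all arrays, summed to 495 to 519 in ES cells, 674 to 712 in line 1, 571 to 691 in line 2 and 512 to 625 in line 3, and Acta1 rose in the iPS mean (0.86, adjusted p = 0.00401). The part of neural, trophoblast, fibroblast or muscle RNA in the member signals was not tested.

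In the iPS mean 2.35% of all probe sets rose and 1.83% fell, so a count of 0 among the few neighbouring genes is near the background. Of the 5 tested genes on the Dlk1 side (Yy1, Slc25a29, Slc25a47, Wars and Wdr25) and the 5 on the Dio3 side (Ppp2r5c, Gm19605, B930059L03Rik, Dync1h1 and Hsp90aa1), 0 passed by limma in the iPS mean, in line 1 or in line 3. Their median differences in the iPS mean were -0.02 and 0.00. In line 2, where 11.1% of all probe sets rose and 7.82% fell, 2 of the 10 rose and 1 fell. Yy1, a zinc finger transcription factor, fell there by 0.27 (adjusted p = 0.00543). Dync1h1, the heavy chain of cytoplasmic dynein, rose there by 0.49 (adjusted p = 0.00043) and Ppp2r5c, a regulatory subunit of protein phosphatase 2A, by 0.34 (adjusted p = 0.0191).

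Imprinted genes of other regions moved both ways. As background, 2.35% of all probe sets tested rose in the iPS mean and 1.83% fell. Of 18 tested genes of other regions listed as read from the maternal copy, 2 rose and 0 fell in the iPS mean, with a median of 0.16. They were Phlda2, which limits placental growth, by 0.77 ± 0.07 (adjusted p = 3.79e-05), and Grb10, an adaptor that restrains insulin receptor signalling, by 0.36 ± 0.06 (adjusted p = 0.00467). The next by adjusted p were Ube3a, a ubiquitin ligase, at 0.21 ± 0.06 (adjusted p = 0.0937) and Igf2r, the receptor that clears IGF2, at 0.27 ± 0.08 (adjusted p = 0.105). In line 2, 7 of these 18 rose and 0 fell, where 11.1% of all probe sets rose. In lines 1 and 3, 2 rose and 0 fell in each, where 0.63% and 0.752% rose.

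Of 21 tested genes listed as read from the paternal copy, 2 rose and 3 fell in the iPS mean, with a median of -0.02. Among all probe sets tested 2.35% rose and 1.83% fell there. Zdbf2, a zinc finger gene, fell by 1.25 (SE 0.10, adjusted p = 2.11e-05) and Mcts2, a retrogene, by 0.73 (SE 0.06, adjusted p = 3.1e-05). Peg3, a zinc finger transcription factor, rose by 0.53 ± 0.06 (adjusted p = 0.000344), and Plagl1, another, fell by 0.24 (SE 0.05, adjusted p = 0.0195).

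Of 21 tested genes that set or keep imprints, 2 rose and 4 fell in the iPS mean. Among all probe sets tested 2.35% rose and 1.83% fell there. Dppa3, which shields imprints from demethylation in the early embryo, rose by 0.92 ± 0.09 (adjusted p = 9.12e-05), and the DNA methyltransferase Dnmt3b by 0.35 ± 0.06 (adjusted p = 0.00571). The methyltransferase cofactor Dnmt3l fell by 0.39 (SE 0.06, adjusted p = 0.0026) and the 5-methylcytosine dioxygenase Tet2 by 0.37 (SE 0.06, adjusted p = 0.00332). The mean hides opposite values of Dnmt3l, which fell by 1.25 in line 2 (adjusted p = 3.07e-07) and was at 0.29 in line 3 (adjusted p = 0.0681). Dnmt3b was at -0.19 in line 2 (adjusted p = 0.106) and rose by 0.85 in line 3 (adjusted p = 0.000145).

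Over the 8 arrays, each member was set against 13159 genes with a tested probe set, each through its tested probe set of highest mean. These genes were not limited to those above the floor in all arrays. The genes most like Meg3 1439380_x_at were Rps6kb2 (r = 0.97), Txnrd3 (r = 0.97) and Ppm1a (r = 0.95). Those most like Rian 1452899_at were Selenoi (r = 0.97), Zfp280c (r = 0.96) and Tspan6 (r = 0.96), and those most like Mirg 1457030_at were Mbd3 (r = 0.99), Irgm1 (r = 0.98) and Eno3 (r = 0.98). Within the region, r was 0.85 between Meg3 and Rian, 0.82 between Meg3 and Mirg and 0.73 between Rian and Mirg. Rian ranked 76 among the genes most like Meg3 and Mirg ranked 136. Among those most like Rian, Meg3 ranked 72 and Mirg 339, and among those most like Mirg, Meg3 ranked 321 and Rian 746. The points are 4 lines with 2 arrays each, so the values describe these arrays only.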

How the data were processed

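The authors deposited 1 linear intensity per probe set and array, and the submitters' processing notes name MAS5 as the tool. Its version and scaling target were not given in the sources used here. Gene names came from the platform annotation, which gave 1 symbol for 34945 of 45101 probe sets, several for 932 and none for 9160. There were 64 control probe sets. Signals were used as deposited, as log2(signal + 12.4), the 20th percentile of all signals. Probe sets above 37.1 in at least 2 arrays entered limma (version 3.58.1, R version 4.3.3; lmFit, eBayes with an intensity trend, group means over 8 arrays, 4 residual and 12.8 moderated degrees of freedom), two-sided, with Benjamini-Hochberg adjustment. The script was tested on simulated data. The number of arrays limits the precision. Every member probe set is named. Of each other list, up to 4 genes with the smallest adjusted p in the iPS mean are named, and neighbours are the 5 nearest tested genes on each side in RefSeq order (GRCm38.p6). Of the genes most alike, 3 are named per member, passing over clone-like names. Single list genes named for line 2 alone were chosen after their values were seen. Members and lists were chosen with earlier results of these data known. Alternatives covered scaling, pseudocount, floor, variance model, replicate block, arrays fitted and arrays left out. Same-numbered arrays of different groups did not deviate together (correlations from -0.012 to 0.019), so numbers were not taken as pairs.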

Additional observations from a re-analysis of the deposited data

Results flagged for a closer look

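9 differences between iPS line 2 and another iPS line passed limma's test of the difference itself (adjusted over 30965 probe sets), all with line 2 lower. Against line 3 the log2 differences were -0.26 for Meg3 1439380_x_at, -0.29 for Meg3 1452905_at, -0.34 for Rian 1452899_at, -0.30 for Rian 1427580_a_at, -0.65 for Rian 1428055_at and -0.69 for Mirg 1457030_at. Against line 1 they were -0.42 for Rian 1427580_a_at, -0.60 for Rian 1428055_at and -0.51 for Mirg 1457030_at. These comparisons share the 2 arrays of line 2. For Mirg 1457030_at those arrays were 349 and 242, wider apart than the arrays of either other iPS line.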

How the results depend on the processing

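Of 27 member differences that passed, 0 kept their call under every alternative and 0 changed sign. Without the intensity trend in the variance, the number of members that passed was 0 in the iPS mean, 0 in line 1, 1 in line 2 and 0 in line 3 against ES cells, 0 in line 2 against line 1 and 1 in line 2 against line 3. The 0 counts hold 8, 9, 10 and 3 members with an unadjusted limma p under 0.05, in that order. Over all probe sets 87, 7, 2677, 0, 1614 and 3817 passed without the trend in these 6 comparisons. With the trend the totals were 1295, 363, 5846, 636, 4894 and 6943. With line means as samples 0 passed in the iPS mean, where 0 of all probe sets passed and 709 had an unadjusted p under 0.05. In line 2 against line 1 the number was 6 with arrays centred on their median and 1 with no floor. Leaving out 1 array at a time gave 2 to 5 in the iPS mean, 0 to 5 in line 1, 0 to 4 in line 2, 2 to 6 in line 3, 0 to 2 in line 2 against line 1, 1 to 5 in line 2 against line 3 and 0 in line 1 against line 3. In each comparison, leaving out an array of a group compared lowered the number of all probe sets that passed as well. Where this leaves 1 array in a group, that array is assumed to vary like the others. With the replicate block the numbers were 5, 5, 3 and 5 in the iPS mean and lines 1 to 3 against ES cells, and 0, 3 and 5 in line 1 against line 3, line 2 against line 1 and line 2 against line 3. The call lost was Rian 1427580_a_at in line 2 against line 3 (adjusted p = 0.0561). Averaged over all its probe sets, Meg3 differed by 0.29 in the iPS mean (adjusted p = 0.11) and Rian by 0.26 (adjusted p = 0.108), against 0.36 (adjusted p = 0.00557) and 0.40 (adjusted p = 0.00267) from the brightest probe set over 14004 genes. Mirg differed by 0.42 (adjusted p = 0.057) and 0.29 (adjusted p = 0.207), and its average in line 2 was 0.14 where its brightest probe set was at -0.11.

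Scaling moved the balance of all calls. Higher calls made up 58.6% of those in line 2 against ES cells, 48.5% with quantile normalization and 43.5% with arrays centred on their median. Centring took line 1 against ES cells from 53.7% to 67.4%, line 3 from 36.6% to 54.6%, line 2 against line 1 from 57.4% to 32.5% and line 2 against line 3 from 60.1% to 39.5% (48.8% with quantile normalization). It moved the median of all probe sets from 0.07 to -0.05 in line 2 against line 1 and from 0.08 to -0.05 in line 2 against line 3.

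Sign changes occurred in 51 of the recomputed values, all for differences that had not passed, with adjusted p of 0.477 or above. The cause was not tested. In the iPS mean, leaving out 1 array gave -0.031 to 0.18 for Meg3 1428765_at, -0.69 to 0.28 for Meg3 1436057_at and -0.21 to 0.39 for Meg3 1452906_at, and leaving out a line gave -0.062 for 1428765_at without line 3 and 0.025 for 1436057_at without line 1. In line 1 against ES cells the ranges were -0.10 to 0.11 for Meg3 1429256_at, -0.10 to 0.26 for Rian 1440001_at and -0.044 to 0.55 for Meg3 1452906_at. In line 2 they were -0.12 to 0.46 for Meg3 1426758_s_at, -0.052 to 0.088 for Rian 1427580_a_at, -0.044 to 0.17 for Meg3 1428765_at, -0.39 to 0.38 for Meg3 1429256_at, -0.42 to 0.60 for Meg3 1429257_at, -0.77 to 0.19 for Meg3 1436057_at, -0.40 to 0.20 for Meg3 1452906_at and -0.36 to 0.14 for Mirg 1457030_at. In line 3 they were -0.14 to 0.82 for Meg3 1436057_at and -0.18 to 0.42 for Meg3 1452906_at. In line 1 against line 3 they were -0.25 to 0.14 for Meg3 1426758_s_at, -0.14 to 0.032 for Rian 1428055_at, -0.10 to 0.19 for Meg3 1428764_at, -0.51 to 0.036 for Meg3 1429257_at, -0.079 to 0.018 for Meg3 1452183_a_at, -0.19 to 0.011 for Rian 1452899_at and -0.081 to 0.35 for Meg3 1452906_at. In line 2 against line 1 they were -0.44 to 0.055 for Meg3 1426758_s_at, -0.40 to 0.38 for Meg3 1429256_at, -0.22 to 0.14 for Rian 1440001_at and -0.12 to 0.011 for Meg3 1452183_a_at, and in line 2 against line 3 -0.50 to 0.0011 for Meg3 1426758_s_at. Quantile normalization gave -0.072 for Rian 1427580_a_at, -0.011 for Meg3 1428764_at, -0.047 for Meg3 1429257_at and -0.12 for Rian 1440001_at in line 2 against ES cells. Centring gave -0.070 for Rian 1427580_a_at, -0.026 for Meg3 1428765_at, -0.0020 for Meg3 1429257_at and -0.041 for Rian 1440001_at there. A pseudocount at the floor gave 0.0075 for Meg3 1429256_at there and 0.0038 in line 2 against line 1.

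The settings left out of single comparisons were those that could not apply: line means and left-out lines concern the iPS mean alone. Signal limits Dlk1 and 3 Meg3 probe sets, which lie at the floor, and 2 arrays a line limit all errors.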
